A study of Mus musculus with 20 samples.

Results

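Myotubes of the C2C12 line exposed to 1000 µM H2O2 were compared with myotubes exposed to 100 µM, to ask which transcripts the higher dose added to the response at 100 µM and which it took away. The comparison rests on 8 of the 20 arrays of the series, the 4 whose titles give 1000 µM and the 4 whose titles give 100 µM. Arrays of untreated myotubes (4) served to place each difference, and 4 arrays each at 1 and 10 µM entered only the estimate of the spread. C2C12 is an immortalised line of mouse myoblasts that fuse into multinucleated myotubes once serum is lowered. All groups were cultures of that line, with no genetic change named, differentiated for 96 h in medium with 2% horse serum and then kept for 2 h in medium with 0.5% horse serum, with or without H2O2. Total RNA of each sample was read on an Affymetrix Mouse Genome 430A array, which measures a transcript through a set of short probes. Levels are given as scaled signals, the deposited intensity values brought to a common trimmed mean of 500, and are listed in the order of replicates 1 to 4. A level is comparable between arrays for 1 gene, not between genes.

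H2O2 crosses membranes and oxidises thiols in proteins. Moderate doses release NRF2 from its cysteine-rich inhibitor KEAP1, and NRF2 then induces enzymes that make glutathione and reduce thioredoxin; damage to DNA and to protein folding engages p53, the ATF4 branch of the integrated stress response and the heat shock factors. Immediate early genes such as Fos and Jun are induced within minutes by stress kinases, and their short-lived mRNAs depend on continuing transcription.

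Relative to 100 µM, the higher dose raised the HSP70 genes Hspa1a and Hspa1b (log2 differences 1.97 ± 0.17 and 1.47 ± 0.15, SE, n = 4 arrays per dose). It also raised the AP-1 genes Fos, Fosb and Jun (1.96 ± 0.27, 2.28 ± 0.27 and 0.84 ± 0.08). Fosb was dim at 100 µM, so the size of its difference is not exact. Some genes of stress pathways that 100 µM had raised were lower again at 1000 µM, among them the glutathione and peroxiredoxin genes Gclc (-1.18 ± 0.16) and Srxn1 (-1.13 ± 0.16) and the glutathione-cleaving enzyme Chac1 (-2.26 ± 0.14). Other falls were in genes not called higher at 100 µM, such as Edn1 (-2.58 ± 0.27) and Foxo1 (-0.96 ± 0.12). Among these genes were also 28 of 135 zinc-finger genes (20.7%, against 3.61% of all tested genes). Edn1 was dim at both doses, so the size of its difference is not exact. Sarcomere, oxidative phosphorylation and proteasome genes gave 1 call in all, beside 4.37% of all tested genes called.

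Differences between arrays in quality and level were examined first. Correlations between the 20 arrays lay between 0.934 and 0.99. The first principal component (28.2% of the variance) set 1 array of each dose apart from the other 3: the one numbered replicate 1, or, at 10 µM, the one whose title has no number and which is counted here as replicate 1, and the second (15.9%) followed the dose. The 3′ to 5′ signal ratios of the Gapdh and beta-actin control probe sets, a sign of RNA integrity, differed between the doses by -0.02 and 0.003 on the log2 scale (exact permutation test over 70 assignments, two-sided, p = 0.943 and p = 1.0). The median log2 signal of an array was 7.26 ± 0.02 at 1000 µM and 7.39 ± 0.05 at 100 µM (SD, n = 4), the groups did not overlap, and the exact p was 0.0286, the smallest the design can give (0.114 after adjustment over 4 measures). The part of this lower median in the counts of lower genes was not tested, but counts with other scalings are given beside them. All 20 listed myotube markers were measured, and 19 of them lay at or above the 90th percentile of their array on each of the 8 arrays, the exception being Myh7, at percentile 89.1 or higher. As the RNA is from whole cultures, fewer cells of a type and less RNA per cell cannot be told apart.

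At 1000 µM more genes were called lower than higher relative to 100 µM, except after centring each array on its median, where the split turned round. Of 8163 genes tested, 357 (4.37%) were called by limma at a Benjamini-Hochberg adjusted p under 0.05, 62 (0.76%) higher and 295 (3.61%) lower, and rose and fell are used below for such calls only. Counted by probe sets, 107 of 14387 were called higher (0.744%) and 518 lower (3.6%). At an unadjusted p under 0.05 the number was 1427 genes. Of the called genes, 10 rose and 22 fell by at least 1 on the log2 scale. The groups of 4 arrays did not overlap for 407 genes that were higher (4.99%) and 835 that were lower (10.2%). For comparison, 100 µM against untreated gave 81 higher (0.992%) and 33 lower genes (0.404%), and 1000 µM against untreated gave 215 (2.63%) and 657 (8.05%); these comparisons share arrays with the main one and with each other.

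The numbers of calls, and their split, depended on the scaling and on the arrays used. Rises made up 17.4% of the calls as scaled, 28.3% after quantile normalization (60 higher and 152 lower genes) and 57.8% after centring each array on its median signal (134 and 98). The last scaling moved the median difference of all tested genes from -0.03 to 0.10 on the log2 scale. With the replicate number as a block, in a fit without the 10 µM array that has no number, 189 genes were called higher and 605 lower, among them all 62 and all 295. Within replicates 2 to 4, 197 were called higher and 567 lower. Counts in gene lists under another fit are to be read beside that fit's counts over all genes. Calls became fewer when 1 array was left out. Higher genes numbered 34 without 100 µM replicate 2, 35 without 100 µM replicate 4, 35 without 1000 µM replicate 2, 39 without 1000 µM replicate 3 and 36 without 1000 µM replicate 4. Lower genes numbered 195, 179 and 163 without 100 µM replicates 1, 2 and 4, and 181, 186 and 172 without 1000 µM replicates 2, 3 and 4. Of the 78 called genes that the naming rule selected, 47 kept their call whichever of the 8 arrays was left out and 31 lost it without at least 1 of them.

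The genes were sorted by their calls at 100 µM against untreated and at 1000 against 100 µM. Among the rises, 32 were added by the higher dose, meaning that they were not called at 100 µM and had moved there by under 0.25 on the log2 scale, and 6 extended a rise already called at 100 µM. A further 4 undid a fall called at 100 µM, and 20 fitted none of these. Among the falls, 198 were added, 3 extended a fall (Clk2, Gpatch8 and Patz1), 28 undid a rise called at 100 µM and 66 fitted none. Of the 81 genes called higher at 100 µM, 6 rose further, 28 fell back, and the median difference from untreated was 0.70 at 100 µM and 0.41 at 1000 µM. These 81 were chosen by their calls on the same 100 µM arrays, so the counts and medians describe them only. Of the 198 added falls, 158 were also called below untreated. Added falls numbered 92 after quantile normalization, 129, 106 and 89 without 100 µM replicates 1, 2 and 4, and 111, 118 and 106 without 1000 µM replicates 2, 3 and 4. Added rises numbered 20 and 18 without 100 µM replicates 2 and 4, and 17, 19 and 18 without 1000 µM replicates 2, 3 and 4. Extended rises numbered 3, 2, 3 and 3 without 100 µM replicates 1 to 4 in turn and 3, 2 and 3 without 1000 µM replicates 2 to 4, and undone falls numbered 1 without 100 µM replicate 2 or 4.

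**Figure D1:**
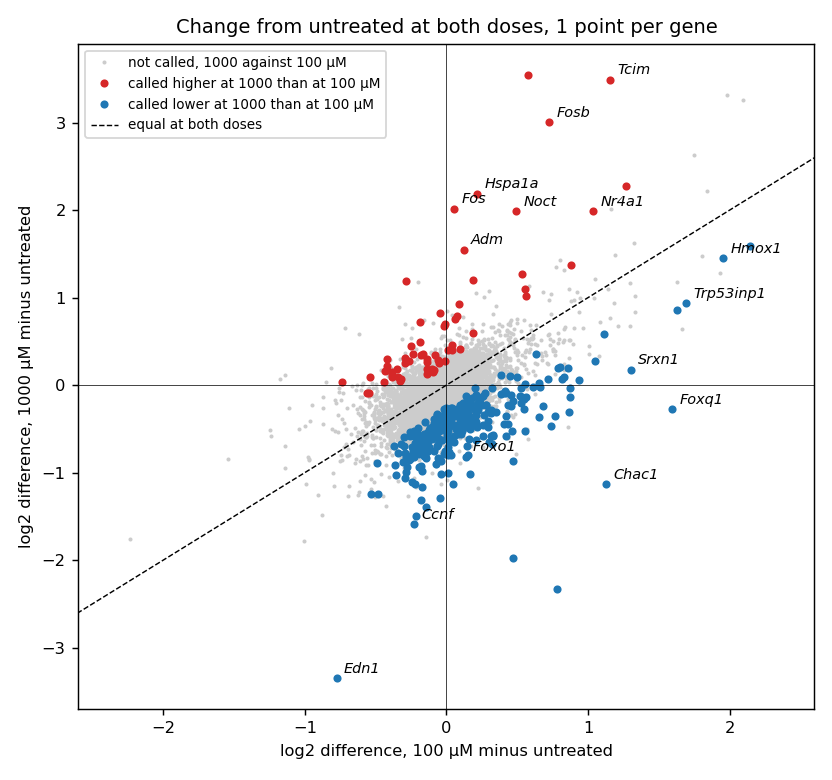
Each point is 1 of the 8163 tested genes, with its log2 difference from untreated at 100 µM on the horizontal axis and at 1000 µM on the vertical axis; the dashed line marks equal differences, and both axes share the untreated arrays. The 62 genes called higher at 1000 than at 100 µM lie above the line and the 295 called lower lie below it; Edn1 is the lowest point, and Chac1 is above 0 on the horizontal and below 0 on the vertical axis.

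The inducible heat shock genes were raised at 1000 µM and not called at 100 µM. Hspa1a and Hspa1b encode the inducible HSP70 chaperone, which refolds denatured proteins. Hspa1a signals were 133, 190, 172 and 164 in untreated myotubes, 170, 184, 200 and 207 at 100 µM and 711, 845, 688 and 738 at 1000 µM. The arrays at 1000 µM all lay above those of the other doses, while the 100 µM and untreated arrays overlapped. The log2 difference of 1000 from 100 µM was 1.97 ± 0.17 (SE, limma, n = 4 per group, adjusted p = 8.68e-07), against 0.22 for 100 µM from untreated. Hspa1b signals were 1266, 1134, 1096 and 1132 at 100 µM and 3693, 3375, 2792 and 3038 at 1000 µM, again without overlap (log2 difference 1.47 ± 0.15, adjusted p = 6.99e-06), and its 3 probe sets were all called. The genes are near-identical copies, and their probes may read both transcripts. Dnajb1, the co-chaperone that hands substrates to HSP70, rose by 0.69 ± 0.09 (adjusted p = 0.00011), from 1050 to 1318 at 100 µM to 1848 to 1962 at 1000 µM. These rises were 3 of the 26 tested heat shock proteins and co-chaperones (11.5%), against 0.76% of all tested genes, and 0 of the 26 fell. The list's median difference was 0.08, against -0.03 over all tested genes, and the other 23 were not called. The 3 calls were kept with each array left out and under both other scalings.

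The upstream promoters of the HSP70 genes are shown because both rose at 1000 µM. They are the 250 bases before the RefSeq start on GRCm38.p6, minus strand, at chr17:34972157-34972406 for Hspa1a and chr17:34959239-34959488 for Hspa1b, and capitals mark a pair of facing heat shock factor repeats, searched as GAANNTTC on both strands.
Hspa1a: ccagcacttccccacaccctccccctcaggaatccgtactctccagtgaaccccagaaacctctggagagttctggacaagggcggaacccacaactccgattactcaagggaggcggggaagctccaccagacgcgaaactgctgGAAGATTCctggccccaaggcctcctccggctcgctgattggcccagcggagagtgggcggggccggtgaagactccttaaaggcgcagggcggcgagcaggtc
Hspa1b: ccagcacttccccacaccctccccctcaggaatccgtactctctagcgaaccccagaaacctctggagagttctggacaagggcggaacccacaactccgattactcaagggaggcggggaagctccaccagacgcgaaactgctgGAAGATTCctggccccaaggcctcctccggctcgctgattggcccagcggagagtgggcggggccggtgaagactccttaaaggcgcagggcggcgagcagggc
Both matches span bases 104 to 97 before the start, and 247 of the 250 bases were identical between the copies (98.8%). The motif is part of the longer heat shock element, in which NNGAA follows it. It was found in 6.78% of the 27025 promoters of the table, 4.79% of the 6662 tested genes that had a promoter entry, 14.6% of the 48 of these called higher and 5.75% of the 226 called lower. The 14.6% is 7 genes, among them both HSP70 copies. The pair in the other orientation, TTCNNGAA, was in 5.63% of the promoters of tested genes, 6.25% of those called higher and 5.31% of those called lower. A match describes the sequence only. The shorter motifs and these genes were chosen after their values were seen, since the longer element matched neither.

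Immediate early genes were a further group of rises, led by Fos, Fosb and Jun, subunits of the AP-1 transcription factor. Fos signals were 364 to 395 in untreated myotubes, 623, 342, 347 and 324 at 100 µM and 1576, 1740, 1361 and 1489 at 1000 µM. Apart from replicate 1, Fos at 100 µM lay below every untreated array, and at 1000 µM all arrays lay above all others (log2 difference 1.96 ± 0.27, adjusted p = 0.000134; 0.05 for 100 µM from untreated). Fosb was measured at 112, 55.8, 77 and 52.3 at 100 µM and at 371, 355, 327 and 328 at 1000 µM, without overlap (2.28 ± 0.27, adjusted p = 3.35e-05). It reached the level of the filter on dim signals on 0 untreated arrays, 1 array at 100 µM and 4 at 1000 µM. Fosb thus passed that filter through its 1000 µM arrays, and the size of the difference is not exact. Jun rose from signals between 1830 and 2040 to signals between 3027 and 3766 (0.84 ± 0.08, adjusted p = 6.54e-06) and was unmoved at 100 µM (0.09 from untreated). Of 10 tested AP-1 and small MAF genes 3 rose and 1 fell, beside 0.76% and 3.61% of all tested genes, with a median of 0.36. The gene that fell was Fosl2 (-0.73, adjusted p = 0.00682), named after its value was seen. With the replicate block 5 of the 10 were called higher and 2 lower, beside 189 and 605 of all 8163 tested genes in that fit.

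Of 23 other immediate early genes tested, 6 rose (26.1%) and 0 fell, beside 0.76% and 3.61% of all tested genes, and the median difference was 0.21. Zfp36, whose protein tristetraprolin promotes decay of AU-rich mRNAs, had signals of 323 to 410 at 100 µM and 562 to 607 at 1000 µM (0.69 ± 0.09, adjusted p = 0.00011). Nr4a1, an orphan nuclear receptor, extended its rise: signals were 242 to 367 untreated, 1005, 585, 535 and 495 at 100 µM and 1012, 1349, 1268 and 1250 at 1000 µM (0.95 ± 0.24, adjusted p = 0.0252). Its replicates 1 at both doses were nearly equal, whereas replicates 2 to 4 were far apart. Leaving out 100 µM replicate 2, 3 or 4 ended its call (adjusted p = 0.0703, 0.0718 and 0.0922), as did leaving out 1000 µM replicate 2, 3 or 4 (0.0792, 0.0641 and 0.0661). Myc rose by 0.50 ± 0.12 on top of 0.88 at 100 µM (adjusted p = 0.024), from signals between 706 and 840 to signals between 1018 and 1133; without 100 µM replicate 2 or 3 or 1000 µM replicate 3 or 4 the adjusted p was 0.0745, 0.0692, 0.059 and 0.0722. Egr1, an immediate early zinc-finger factor, was not called (0.17 ± 0.15, adjusted p = 0.593), and its signals overlapped at 2941 to 3163 and 2967 to 3921. The count of 6 fell to 2 without 100 µM replicate 2 or 1000 µM replicate 3, and to 3 without 100 µM replicate 3 or 4 or 1000 µM replicate 2 or 4. It was 4 without 1000 µM replicate 1 and 8 with the replicate block, a fit that called 189 of all 8163 tested genes higher.

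Atf3, a stress-induced member of the ATF and CREB family, had a large difference and no call. Its signals were 53.9 to 103 untreated, 458, 286, 298 and 194 at 100 µM and 932, 715, 644 and 705 at 1000 µM, so the doses did not overlap. The log2 difference was 1.33 ± 0.44, with an adjusted p of 0.10 as fitted. The adjusted p was 0.00486 with the replicate block, 0.0126 with only the 8 arrays in the fit and 0.0207 within replicates 2 to 4. Fos is shown with its promoter, chr12:85473640-85473889 on GRCm38.p6 (RefSeq, plus strand, 250 bases before the start), since it is the largest named immediate early rise with a match. Capitals mark TGACGT, the core of the element bound by CREB and ATF factors, searched on both strands and contained in the full element TGACGTCA.
Fos: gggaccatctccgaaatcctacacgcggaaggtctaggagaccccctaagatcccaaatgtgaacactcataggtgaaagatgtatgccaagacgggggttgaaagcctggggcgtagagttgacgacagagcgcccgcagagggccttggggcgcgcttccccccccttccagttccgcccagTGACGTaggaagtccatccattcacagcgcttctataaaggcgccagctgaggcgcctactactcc
The match spans bases 66 to 61 before the start. This core was found in 6.56% of all promoters, 10.9% of those of the genes tested, 6.25% of those of the genes called higher and 10.2% of those called lower. The full element was in 1.62% of all promoters, 2.82% of those of the genes tested and 0 of the 48 called higher, and the AP-1 element TGACTCA in 4.43%, 3.11% and 0. The core and the gene were chosen after the values were seen.

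Rises outside these families included genes of several kinds. 2610528A11Rik went from 28, 14.8, 20.1 and 6.9 at 100 µM to 122, 127, 132 and 108 at 1000 µM (2.98 ± 0.64, adjusted p = 0.00909); it passed the filter on dim signals only through its 1000 µM arrays, so the size of the difference is not exact and its rank among the rises is not given. Tcim, a small regulator of transcription and immune responses, rose at both steps. Its signals were 75.4, 152, 135 and 161 untreated, 423, 236, 311 and 199 at 100 µM and 1004, 1648, 1536 and 1576 at 1000 µM, with no overlap between any pair of the 3 doses (2.34 ± 0.24, adjusted p = 6.99e-06). Noct, nocturnin, a rhythmic phosphatase related to mRNA deadenylases, had signals of 719, 407, 390 and 347 at 100 µM and 1524, 1228, 1110 and 1206 at 1000 µM (1.5 ± 0.20, adjusted p = 0.000117). The noncoding transcript of the ROSA26 locus, Gt(ROSA)26Sor, had signals of 181 to 217 at 100 µM and 389 to 411 at 1000 µM (1.01 ± 0.13, adjusted p = 0.000107). The RING finger gene Rnf225 extended a rise (1.00 ± 0.26, adjusted p = 0.0287), and Gm11517 was added (0.91 ± 0.23, adjusted p = 0.0237). Rnf225 lost its call without 100 µM replicate 2 or 4 (adjusted p = 0.0704 and 0.105), without 1000 µM replicate 1, 2 or 3 (0.0853, 0.0734 and 0.0696) and after quantile normalization (0.0648). Gm11517 lost it without 100 µM replicate 2 or 4 (0.0548 and 0.0955) and without 1000 µM replicate 1, 2, 3 or 4 (0.0574, 0.0575, 0.0554 and 0.05). Nfkbia, the inhibitor that NF-kB induces against itself, rose by 0.54 ± 0.11 on top of 0.56 at 100 µM (adjusted p = 0.00399); 1 of its 4 probe sets was called and all 4 had the same sign. It was the 1 called gene of 18 tested NF-kB targets and cytokines, whose median was 0.11.

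Adm encodes adrenomedullin, a vasodilator peptide. Its signals were 56.0, 45.6, 49.3 and 36.8 at 100 µM, within the range of 32.6 to 48.3 of the untreated arrays or just above it, and 117, 150, 124 and 111 at 1000 µM. The doses did not overlap (1.43 ± 0.28, adjusted p = 0.00452), but Adm too passed the filter only through its 1000 µM arrays, and the size of the difference is not exact. Among the largest named rises with a promoter entry (9 of 12), it was the one with a match to a motif of the list, so its upstream sequence is printed: chr7:110627407-110627656 on GRCm38.p6 (RefSeq, plus strand), with capitals for TGACNNNGC, the antioxidant response element bound by NRF2 with small MAF proteins, 58 to 50 bases before the start.
Adm: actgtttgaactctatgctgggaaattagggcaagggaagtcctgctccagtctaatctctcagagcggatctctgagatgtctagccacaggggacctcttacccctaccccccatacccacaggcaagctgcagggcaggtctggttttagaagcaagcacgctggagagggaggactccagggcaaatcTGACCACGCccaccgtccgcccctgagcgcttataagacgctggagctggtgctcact
This motif, searched on both strands, was in 10.1% of all promoters, 11.9% of those of the genes tested, 14.6% of those of genes called higher and 14.2% of those called lower.

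**Figure D2:**
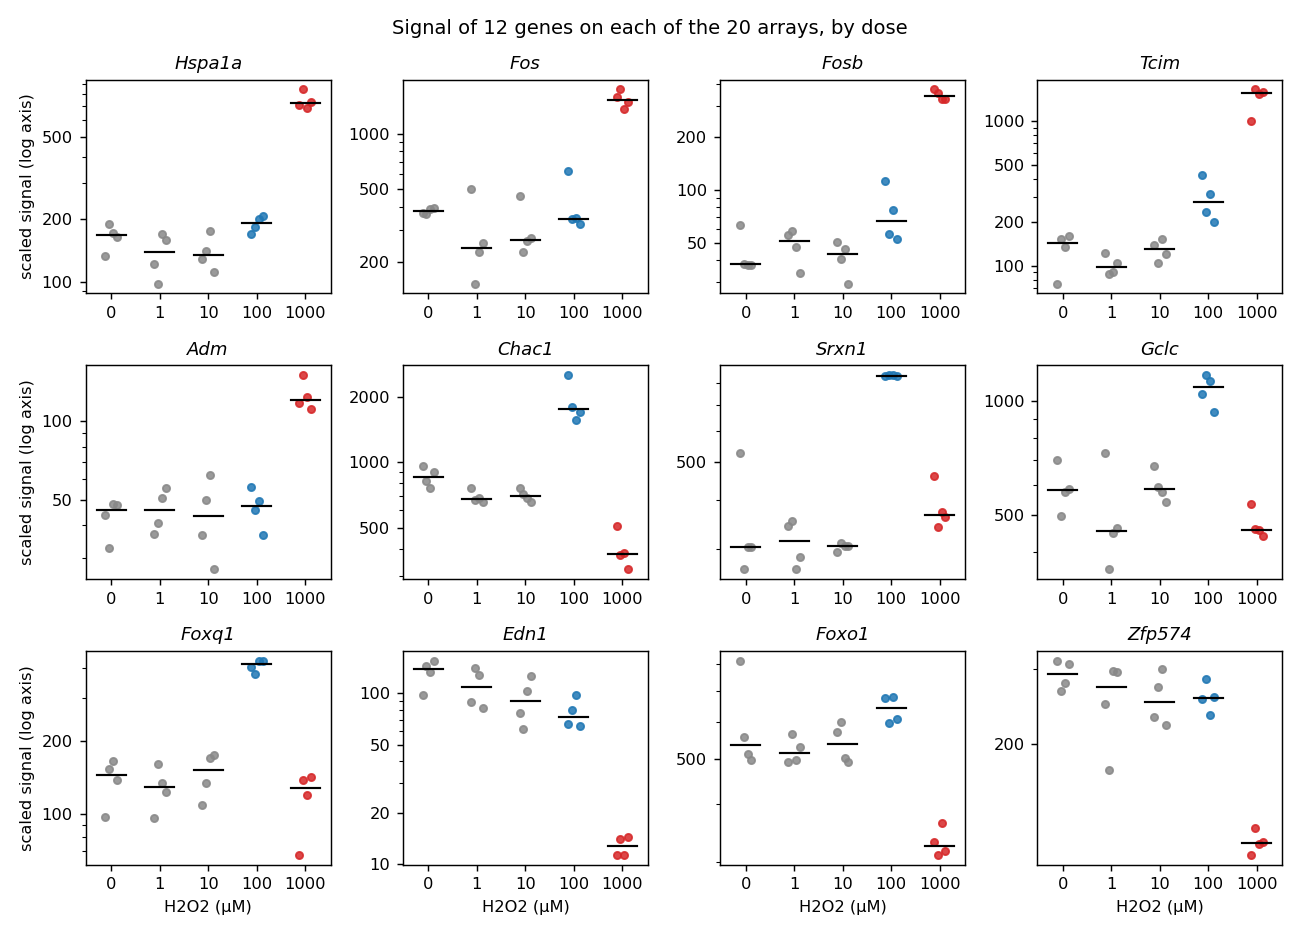
Scaled signal (vertical log axis) of 12 named genes on each of the 20 arrays, against the H2O2 dose. Each point is 1 array, grey for 0, 1 and 10 µM, blue for 100 µM and red for 1000 µM. The bar is the median of the scaled signals of the 4 arrays of a dose. Hspa1a, Fos, Fosb, Tcim and Adm are highest at 1000 µM, Chac1, Srxn1, Gclc and Foxq1 are highest at 100 µM, and Edn1, Foxo1 and Zfp574 are lowest at 1000 µM.

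Several NRF2 targets that 100 µM had raised fell at 1000 µM. Of 21 tested targets, 8 were called higher at 100 µM than in untreated myotubes, against 0.992% of all tested genes. At 1000 against 100 µM, 7 fell (33.3%) and 0 rose, beside 3.61% and 0.76% of all genes. Of the 21, 17 were below 0, and the list's median was -0.36 against -0.03 over all genes. Measured from untreated myotubes, the median was 0.33 at 100 µM and 0.17 at 1000 µM. Srxn1, sulfiredoxin, which repairs over-oxidised peroxiredoxins, had signals of 529, 267, 304 and 304 untreated, 833, 836, 836 and 833 at 100 µM and 461, 342, 372 and 362 at 1000 µM. Its 100 µM arrays lay above all others, and untreated and 1000 µM arrays overlapped (1000 minus 100 µM -1.13 ± 0.16, adjusted p = 0.000142). Of its 4 probe sets 3 were called lower and all had this sign. Gclc, the catalytic subunit of the ligase that makes the glutathione precursor, had 1045, 1174, 1135 and 939 at 100 µM and 536, 459, 456 and 441 at 1000 µM, against 496 to 701 untreated (-1.18 ± 0.16, adjusted p = 0.0001). Gsta4, a glutathione transferase for lipid aldehydes, fell by 0.78 ± 0.12 on the log2 scale (adjusted p = 0.000432), and Txnrd1, cytosolic thioredoxin reductase, by 0.59 ± 0.08 (adjusted p = 0.000134), with signals of 2697, 3428, 3299 and 3328 at 100 µM and 2045 to 2207 at 1000 µM. Of the 3 Txnrd1 probe sets 2 were called lower, and all had this sign. At 1000 µM, 0 of these 4 genes were called different from untreated.

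Hmox1, heme oxygenase 1, was called above untreated at both doses. Its signals were 359 to 484 untreated, 1638, 1288, 1762 and 1683 at 100 µM and 879, 1291, 1210 and 1128 at 1000 µM; the ranges at 100 and 1000 µM overlap, and both lie above untreated. The difference of 1000 from 100 µM was -0.50 ± 0.13 (adjusted p = 0.0272), against 1.45 for 1000 µM from untreated. The call was lost without 100 µM replicate 1, 3 or 4 (adjusted p = 0.0676, 0.0818 and 0.0837), without 1000 µM replicate 1 or 4 (0.0886 and 0.0637) and with median centring (0.117). Gclm, the regulatory subunit of the glutathione ligase, fell by 0.67 ± 0.17 (adjusted p = 0.0307) and lost its call without 100 µM replicate 3 or 4 (0.0998 and 0.0936), without 1000 µM replicate 1, 2 or 4 (0.094, 0.0666 and 0.0744), and under quantile normalization (0.111) or median centring (0.104). The count of 7 fell to 4 without 100 µM replicate 4, without 1000 µM replicate 4 and with median centring. It was 12 with the replicate block, a fit that called 605 of all 8163 tested genes lower. Of 20 tested antioxidant enzymes, a wider list, 1 rose and 1 fell (Txnrd1), beside 0.76% and 3.61% of all tested genes, and the median was 0.12. The rise was Gpx8, a peroxidase of the endoplasmic reticulum (0.26 ± 0.07, adjusted p = 0.0482), whose call was lost without each single array but 100 µM replicate 3 (0.0781 to 0.151).

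Some targets of p53 and of ATF4 fell as well. Of 28 tested p53 targets, 14 were called higher at 100 µM than untreated, against 0.992% of all tested genes. At 1000 against 100 µM 7 fell (25%) and 0 rose, against 3.61% and 0.76% of all genes, and the median was -0.21. Trp53inp1, a p53-induced regulator of autophagy, had signals of 589 to 711 untreated, 2171, 2077, 2098 and 1961 at 100 µM and 968, 1371, 1328 and 1285 at 1000 µM. These were 3 ranges without overlap (-0.76 ± 0.13, adjusted p = 0.00109, and 0.93 from untreated). Of its 2 probe sets 1 was called lower, and both had this sign. Polk, a translesion DNA polymerase, had 204 to 235 untreated, 378 to 488 at 100 µM and 180 to 282 at 1000 µM, where the arrays spread to both sides of the untreated range (-0.88 ± 0.15, adjusted p = 0.0015; 1 of its 2 probe sets called). Mdm2, the ubiquitin ligase that p53 induces against itself, was not called by its brightest probe set (-0.32 ± 0.13, adjusted p = 0.175). The doses did not overlap there (2956 to 4055 against 2445 to 2929), and 1 of its 2 probe sets, the other one, was called lower. Within replicates 2 to 4 the adjusted p of the brightest was 0.0421, and with array weights 0.00618. Cdkn1a, the p21 cell cycle inhibitor, was not called either (-0.19 ± 0.11, adjusted p = 0.404). Its adjusted p was 0.039 with quantile normalization. Sesn2, a stress sensor of amino acid supply, fell by 0.77 ± 0.21 (adjusted p = 0.0419), with overlapping signals of 514 to 921 and 303 to 550. It lost its call without 100 µM replicate 1, 2 or 3 (adjusted p = 0.14, 0.113 and 0.0632), without 1000 µM replicate 1, 2 or 4 (0.126, 0.0869 and 0.0969) and with either other scaling (0.0613 and 0.0683). Within replicates 2 to 4 the difference was -0.49, with an adjusted p of 0.13. The count of 7 was 4 without 100 µM replicate 1 and with median centring.

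Chac1 had the largest fall among the genes raised at 100 µM. It encodes an enzyme that cleaves glutathione and is a target of ATF4 and CHOP. Signals were 961, 819, 763 and 898 untreated, 2520, 1802, 1570 and 1714 at 100 µM and 508, 374, 382 and 321 at 1000 µM. The 3 groups did not overlap: 100 µM was the highest and 1000 µM the lowest (1000 minus 100 µM -2.26 ± 0.14, adjusted p = 3.39e-09; 1.13 at 100 µM and -1.13 at 1000 µM from untreated, adjusted p = 4.32e-05 and 1.38e-05). Of the 28 undone rises it was the 1 called below untreated. Ddit3, which encodes CHOP, kept part of its rise, with 349 to 412 untreated, 709 to 946 at 100 µM and 464, 614, 608 and 594 at 1000 µM (-0.53 ± 0.10, adjusted p = 0.00417). Trib3, a pseudokinase that CHOP induces, fell by 0.59 ± 0.13 (adjusted p = 0.0115; 1 of 2 probe sets called). Of 31 tested ATF4 targets 6 fell (19.4%) and 0 rose, against 3.61% and 0.76% of all tested genes, and the median was -0.18. At 100 µM 9 had been called higher than untreated, against 0.992% of all genes. The count of 6 was 3 without 100 µM replicate 1 or 2, without 1000 µM replicate 2 or 4 and with median centring. It was 11 with the replicate block, a fit that called 605 of all 8163 tested genes lower. Herpud1, a component of endoplasmic reticulum degradation, fell by 0.82 ± 0.23 (adjusted p = 0.0458) and, with 1 array left out, kept its call without 100 µM replicate 3 or 1000 µM replicate 1 alone; without the others the adjusted p was 0.148, 0.0821 and 0.093 (100 µM replicates 1, 2 and 4) and 0.134, 0.103 and 0.128 (1000 µM replicates 2, 3 and 4).

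The other undone rises included genes of several functions. Foxq1, a forkhead transcription factor, had signals of 96.7, 153, 165 and 137 untreated, 404, 378, 426 and 428 at 100 µM and 67.3, 137, 119 and 142 at 1000 µM. It was high at 100 µM alone, and untreated and 1000 µM arrays overlapped (-1.87 ± 0.23, adjusted p = 4.22e-05). Igtp, an interferon-inducible GTPase, had 209 to 227 at 100 µM and 93.6 to 139 at 1000 µM (-0.93 ± 0.14, adjusted p = 0.000455). Lpin1, a phosphatidate phosphatase and coactivator of lipid metabolism, had 279 to 477 and 140 to 205 (-0.90 ± 0.15, adjusted p = 0.00134, 1 of its 2 probe sets called). Over the 28 genes the median difference from untreated was 0.82 at 100 µM and 0.09 at 1000 µM, 20 were still above untreated and 6 were called so. The class was defined by these calls, so the medians describe it only. It held 19 to 27 genes when 1 array was left out and 29 after quantile normalization.

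**Figure D3:**
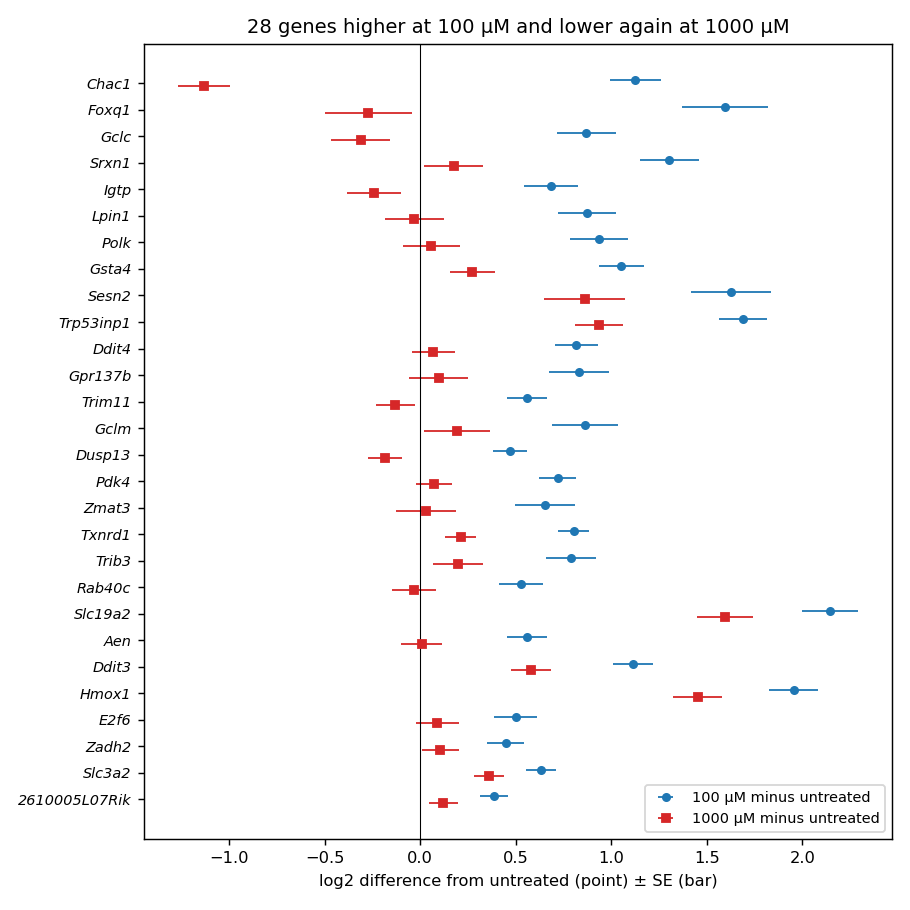
Log2 difference from untreated (horizontal axis) at 100 µM (blue circles) and 1000 µM (red squares) of the 28 genes called higher at 100 µM and lower at 1000 than at 100 µM, ordered by the size of the fall; bars are standard errors from the fit, n = 4 arrays per dose. Most red squares lie near 0, while Slc19a2, Hmox1, Trp53inp1 and Sesn2 keep a rise and Chac1 lies at -1.13.

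Many of the falls at 1000 µM were in genes that were not called higher at 100 µM. Edn1, the vasoconstrictor peptide endothelin 1, had signals of 96.8, 143, 133 and 154 untreated, 65.9, 79.8, 97.8 and 64 at 100 µM and 11.3, 14.1, 11.3 and 14.5 at 1000 µM. The arrays at 1000 µM lay far below every other array (-2.58 ± 0.27, adjusted p = 6.99e-06, and -3.35 from untreated). Edn1 reached the level of the filter on dim signals on 3 untreated arrays, 1 at 100 µM and 0 at 1000 µM. Both sizes are therefore approximate. Adm rose and Edn1 fell within the same list of 16 hypoxia and vascular signal genes. In all 2 of the 16 rose and 2 fell, beside 0.76% and 3.61% of all tested genes. Ccnf, cyclin F, which selects substrates for a ubiquitin ligase, had 199, 294, 277 and 243 at 100 µM and 83.8, 75.2, 125 and 114 at 1000 µM (-1.36 ± 0.17, adjusted p = 6.02e-05). Uhrf1bp1, a lipid transfer protein gene, had 262 to 330 untreated, 375 to 438 at 100 µM and 137 to 210 at 1000 µM (-1.34 ± 0.16, adjusted p = 2.83e-05). Taf1c, a subunit of the RNA polymerase I selectivity factor, had 99.7 to 146 and 32.5 to 99.3 (-1.25 ± 0.26, adjusted p = 0.00682). With 1 array at 1000 µM at the level of the filter on dim signals, this size is approximate. Taf1c was the 1 called gene of 67 in the basal transcription list, and in a fit of the 8 arrays alone its adjusted p was 0.0725. Fam83h had 140 to 167 untreated, 233 to 289 at 100 µM and 106 to 116 at 1000 µM (-1.20 ± 0.23, adjusted p = 0.00403). For Uhrf1bp1 and Fam83h every 100 µM array lay above every untreated one, without a call (0.47 and 0.74, adjusted p = 0.196 and 0.167), and Fam83h at 1000 µM was not called below untreated (-0.47, adjusted p = 0.21).

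The muscle atrophy pair Foxo1 and Fbxo32 fell together. Foxo1 is a forkhead factor that induces Fbxo32, which encodes atrogin-1, the muscle ubiquitin ligase of protein loss. Foxo1 signals were 813, 556, 513 and 496 untreated, 676, 597, 680 and 610 at 100 µM and 331, 310, 364 and 317 at 1000 µM. The 1000 µM arrays lay below all others (-0.96 ± 0.12, adjusted p = 9.22e-05), and all 3 probe sets were called. Fbxo32 had 305, 459, 447 and 385 at 100 µM and 166, 241, 228 and 187 at 1000 µM, with no overlap (-0.96 ± 0.17, adjusted p = 0.00206; both probe sets called). They were the 2 called genes of 12 tested FOXO factors and atrophy genes (16.7% lower, against 3.61% of all tested genes), whose median was -0.25. With the replicate block 4 of the 12 fell, beside 605 of all 8163 tested genes in that fit. Both calls were kept with each array left out and with both other scalings.

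Of the 42 gene lists, that of the zinc-finger genes held the most falls. Genes with Zfp and Zbtb symbols encode mostly DNA-binding proteins, many of them KRAB repressors. Of 135 tested, 28 fell (20.7%) and 2 rose, against 3.61% and 0.76% of all genes, 116 lay below 0 and the median was -0.26. The 2 that rose were Zfp36, described above as an mRNA decay factor, and Zfp931 (0.58, adjusted p = 0.0402), named after its value was seen. From untreated, 0 of the 135 were called at 100 µM, and 42 were called lower at 1000 µM. Zfp574 had signals of 266 to 314 untreated, 255, 285, 234 and 258 at 100 µM and 109, 126, 116 and 117 at 1000 µM (-1.14 ± 0.15, adjusted p = 9.22e-05; both probe sets called). The 100 µM arrays overlapped with untreated and the 1000 µM arrays lay apart. Zfp566 had 107, 106, 65.7 and 109 at 100 µM and 34.4, 53.2, 31.5 and 44.9 at 1000 µM (-1.24 ± 0.22, adjusted p = 0.00223), and Zfp113 had 83.4 to 133 and 29.9 to 64.9 (-1.18 ± 0.25, adjusted p = 0.00903). For Zfp566 and Zfp113, 0 arrays at 1000 µM reached the level of the filter on dim signals, so both sizes are approximate. Zfp958, Zfp87 and Zfp82 also fell, with log2 differences of -1.12, -1.08 and -1.02; all arrays of Zfp958 and Zfp87 at 100 µM, and 3 of the 4 of Zfp82, lay above the untreated arrays, although none of these genes was called there. The number of falls was 18 with quantile normalization and 15 with median centring, beside 152 and 98 of all 8163 tested genes. The list's median was then -0.17 and -0.14, against 0.01 and 0.10 over all genes. With 1 array left out, 21 to 26 of the list fell.

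Chromatin modifying and remodelling genes showed a smaller shift: 11 of 83 fell (13.3%, against 3.61% of all tested genes), 0 rose and the median was -0.14. Kmt2e, a SET-domain chromatin reader, had 1212 to 1247 untreated, 796, 1009, 1275 and 1119 at 100 µM and 446, 679, 551 and 619 at 1000 µM (-0.87 ± 0.14, adjusted p = 0.000678; both probe sets called). Phf3, a PHD-finger protein that binds RNA polymerase II, fell by 0.72 ± 0.17 (adjusted p = 0.015), with adjusted p = 0.0524 without 100 µM replicate 4 and 0.0517 without 1000 µM replicate 4. The list's count was 7 both without 100 µM replicate 4 and with quantile normalization, and 4 with median centring. Over all 8163 tested genes, 163, 152 and 98 were lower in these fits in turn. Median centring put the list's median at -0.01 and that of all tested genes at 0.10. Clk2, a kinase of SR splicing factors, fell at both steps: signals were 471 to 498 untreated, 323, 373, 325 and 368 at 100 µM and 208, 215, 211 and 180 at 1000 µM, 3 ranges without overlap (-0.77 ± 0.10, adjusted p = 0.0001). Of 36 SR proteins, hnRNPs and splicing kinases, 2 fell and 1 rose (Tra2b, 0.39, adjusted p = 0.0415). Tra2b lost its call without each single array but 100 µM replicate 1 (0.0533 to 0.135). Among further falls that kept their call without each array were Socs6 (-0.62, adjusted p = 0.000667), an inhibitor of cytokine signalling; Stat5b (-0.38, adjusted p = 0.00713), a transducer of cytokine signals that was not called after quantile normalization (0.0527) or median centring (0.0809); Klf5 (-0.51, adjusted p = 0.00978), a Kruppel-like factor; and Ppan (-0.77, adjusted p = 0.00347), a ribosome biogenesis factor.

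**Figure D4:**
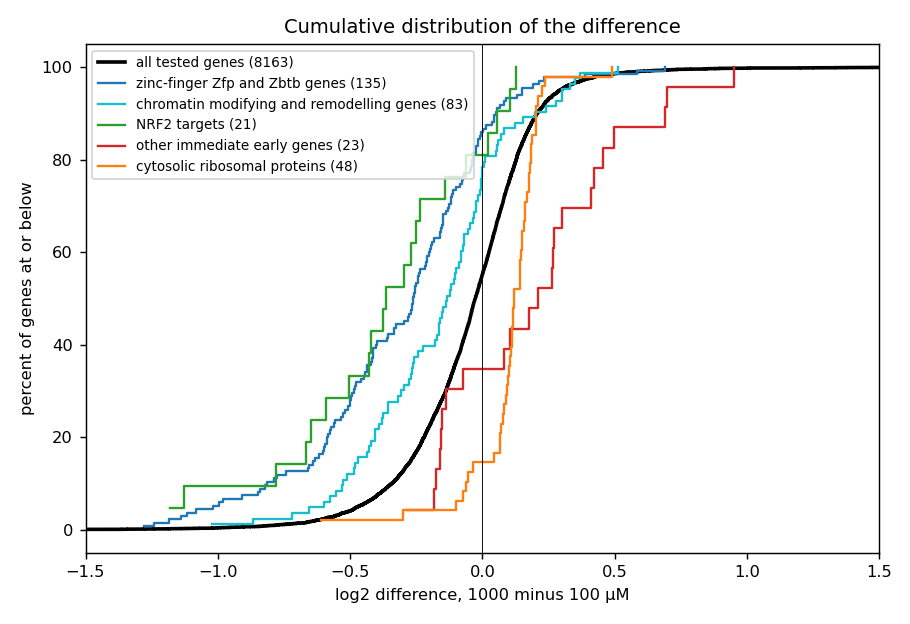
Percent of genes (vertical axis) with a log2 difference of 1000 minus 100 µM at or below the value on the horizontal axis, for all 8163 tested genes (black) and 5 gene lists, 1 line each. The lines of the NRF2 targets, the zinc-finger genes and the chromatin genes lie to the left of all genes, with medians of -0.36, -0.26 and -0.14, and those of the ribosomal proteins and the other immediate early genes to the right, with 0.12 and 0.21.

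A small set of genes that had fallen at 100 µM stood at the untreated level again at 1000 µM. Cdkn2d, the p19 inhibitor of cyclin D kinases, had signals of 1020 to 1218 untreated, 789, 825, 811 and 782 at 100 µM and 1159, 1146, 1053 and 1116 at 1000 µM (0.48 ± 0.08, adjusted p = 0.00082). Kif2c, a microtubule-depolymerising kinesin of mitosis, had 646 to 797, 465 to 573 and 970, 725, 685 and 713 (0.63 ± 0.12, adjusted p = 0.00277; 1 of 3 probe sets called). For both genes the 100 µM arrays lay below all untreated and 1000 µM arrays, and untreated and 1000 µM arrays overlapped. Pimreg, a regulator of mitotic exit (0.46 ± 0.11, adjusted p = 0.0203), lost its call without 100 µM replicate 2 or 4 (0.0649 and 0.0561) or 1000 µM replicate 1 (0.0619). The histone variant gene Macroh2a2 (0.47 ± 0.13, adjusted p = 0.0382) lost it without 100 µM replicate 2 or 4 (0.103 and 0.144) or 1000 µM replicate 1, 3 or 4 (0.109, 0.0777 and 0.0816). Of 35 tested cell cycle genes, which mark cycling undifferentiated cells in such cultures, 3 rose (8.57%) and 0 fell at 1000 against 100 µM. Over all tested genes 0.76% rose and 3.61% fell. The list's median was 0.10, and 4 had been called lower at 100 µM than untreated, against 0.404% of all genes. The summed signal of the 35 genes was 34112 to 35437 at 100 µM and 35960 to 42507 at 1000 µM. Its part in Cdkn2d, Kif2c, Pimreg and Macroh2a2 was not tested. The count of 3 was 1 without 100 µM replicate 2 or 1000 µM replicate 1. It was 2 without 100 µM replicate 3 or 4 or 1000 µM replicate 3 or 4. With the replicate block it was 6 and with median centring 8, beside 189 and 134 of all 8163 tested genes.

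Markers of other cells gave few calls, beside 4.37% over all tested genes, a share that gives few calls in lists of these sizes. Among 18 fibroblast and matrix genes, 15 reserve and satellite cell genes and 5 tested leukocyte genes 0 were called at 1000 against 100 µM, and among 4 tested adipocyte, bone and cartilage genes 1 rose. That gene was Sox9 (0.53 ± 0.12, adjusted p = 0.0169), which lost its call without 100 µM replicate 4 (0.0613) or 1000 µM replicate 2 (0.0664). Summed signals of the fibroblast list were 73513 to 105413 at 100 µM and 82808 to 103950 at 1000 µM.

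Sarcomere genes were called lower at about the share of all tested genes. Of 34 sarcomere and contractile genes 1 fell (2.94%, against 3.61% over all genes) and 0 rose, with a median of -0.03. It was Myom2, which encodes an M-band protein: 3376, 3126, 3450 and 3649 at 100 µM and 2226, 2571, 2491 and 2582 at 1000 µM (-0.46 ± 0.07, adjusted p = 0.000707). The actin gene Acta1 (0.12 ± 0.14, adjusted p = 0.743) and the myogenic factors Myog (0.11 ± 0.07, adjusted p = 0.45) and Myod1 (0.20 ± 0.10, adjusted p = 0.314) were not called. Myod1 was already below untreated at 100 µM, with 1917 to 2223 untreated, 1008 to 1470 at 100 µM and 1301 to 1539 at 1000 µM. Mef2d (-0.40, adjusted p = 0.0388) and Six4 (-0.29, adjusted p = 0.0415) were the 2 called of 13 myogenic factors, both lower (15.4%). Their calls were lost without each of 100 µM replicates 1 and 2 and 1000 µM replicates 1, 3 and 4 (adjusted p = 0.107, 0.0538, 0.0939, 0.101 and 0.107 for Mef2d and 0.0869, 0.138, 0.0672, 0.0696 and 0.0762 for Six4), for Mef2d also without 100 µM replicate 4 (0.133) and for Six4 without 100 µM replicate 3 (0.079) or 1000 µM replicate 2 (0.131). Median centring ended both calls (0.23 and 0.30).

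Housekeeping families gave hardly any calls, beside 4.37% over all tested genes. That share gives few calls in any 1 of these lists, and whether the families together differ from all genes was not tested. In 82 oxidative phosphorylation subunits, 74 mitochondrial ribosomal proteins, 35 proteasome subunits and 16 glycolysis genes 0 rose and 0 fell, with medians of 0.08, 0.05, 0.07 and 0.04. Of 48 cytosolic ribosomal proteins 1 fell (Rpl12, -0.61 ± 0.14, adjusted p = 0.0133) and the median was 0.12. Rpl12 lost its call without 100 µM replicate 1 (0.0526) or 1000 µM replicate 4 (0.0555) and with quantile normalization (0.0855) or median centring (0.0825). MAPK phosphatases and feedback inhibitors (13 tested), clock genes (14) and metal-responsive genes (8) also gave 0 calls in either direction. The lists of 13, 14 and 8 genes are too small for 0 calls to set them apart from all genes. With the replicate block, 3 oxidative phosphorylation genes were called higher and 0 lower, beside 189 and 605 of all 8163 tested genes.

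Smaller counts came from further lists, beside 3.61% lower and 0.76% higher over all tested genes. Falls among ubiquitin-specific proteases (3.23%), ribosome biogenesis (3.12%), RING, TRIM and F-box (5%) and cholesterol genes (5.56%) were near that share. In lists of these sizes, 0 rises say little. Falls and no rises were seen in endoplasmic reticulum stress genes (3 of 21), SOCS and STAT genes (2 of 11), DNA repair and checkpoint genes (2 of 29), cholesterol synthesis (1 of 18), the Notch pathway (1 of 14), ubiquitin-specific proteases (1 of 31), cholinergic receptor and synapse genes (1 of 9) and ribosome biogenesis (1 of 32). Of 100 RING, TRIM and F-box genes 5 fell and 1 rose (Rnf225), with 3 to 5 falls without single arrays. Under the replicate block 11 fell, beside 605 of all 8163 tested genes. Of 10 Kruppel-like factors 3 fell and 1 rose. Several of these counts rest on genes whose call 1 array could end. The fall in cholesterol synthesis (Dhcr7) and that in ubiquitin-specific proteases (Usp38) were lost whichever of the 8 arrays was left out. That for DNA repair (Msh6 and Rad50) was 1 without 100 µM replicate 1 or 4 and 0 without each of the other 6. Chrnd, the cholinergic call, was lost without 100 µM replicate 1 or 4 or 1000 µM replicate 1, 2 or 3, and Notch1 without replicate 2 of either dose. Falls among Kruppel-like factors numbered 2 without 100 µM replicate 1 or 4 and 1 without each other array, and the rise was lost without each array but 100 µM replicate 2 and 1000 µM replicate 1. Falls in the SOCS and STAT, and ribosome biogenesis, lists numbered 2 or 3, and 1, without each array. Rises and no falls were seen in mRNA decay factors (2 of 22, Zfp36 and Noct), ID, SMAD and TGF-beta feedback genes (2 of 17, Id2 and Id3) and the BCL2 family (1 of 14, Bnip3). Id3, an inhibitor of myogenic helix-loop-helix factors, had 77.2, 108, 119 and 93.7 at 100 µM and 132, 204, 155 and 189 at 1000 µM (0.77 ± 0.20, adjusted p = 0.0339). The doses did not overlap, and its call was lost without 100 µM replicate 1, 2 or 4 (0.109, 0.0558 and 0.0866) or 1000 µM replicate 2, 3 or 4 (0.117, 0.059 and 0.103). Id2, of the same family, rose by 0.60 ± 0.14 (adjusted p = 0.0197) on 1 probe set, while its other probe set had the opposite sign; its call was lost without replicate 1 of either dose (0.0582 at 100 µM and 0.0619 at 1000 µM) or 1000 µM replicate 2 (0.0634). Bnip3, a mitophagy receptor, was called at an adjusted p of 0.0488, with 0.0914 to 0.154 without each of 100 µM replicates 1, 2 and 4 and 1000 µM replicates 2, 3 and 4. The falls in endoplasmic reticulum stress genes numbered 0 without 100 µM replicate 4, without 1000 µM replicate 2 and with median centring, and 1 without 100 µM replicate 1 or 2 or 1000 µM replicate 3 or 4.

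**Figure D5:**
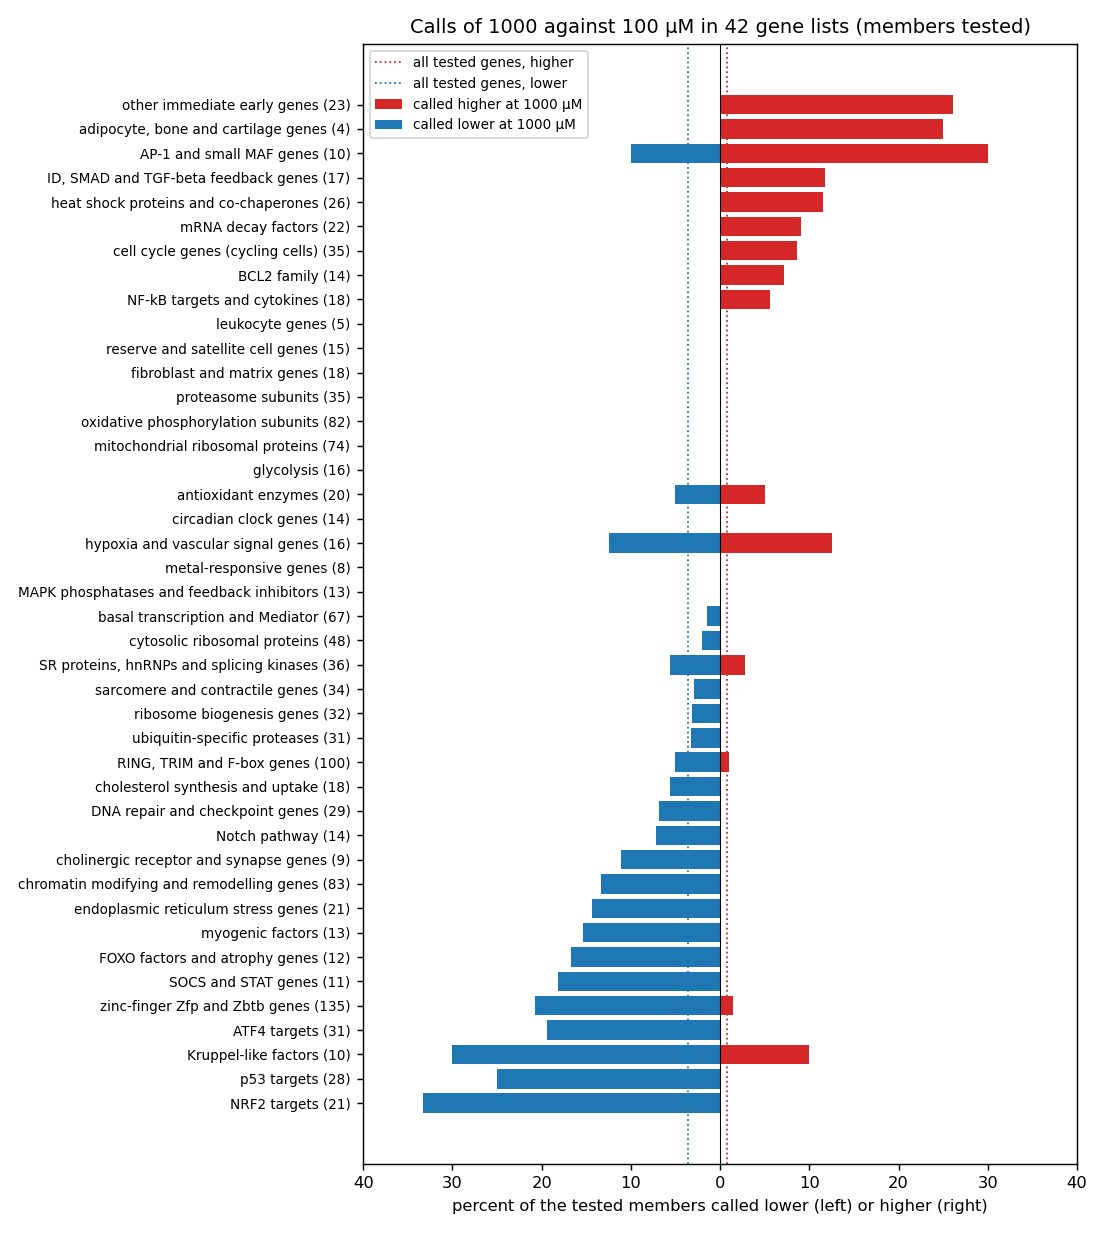
Percent of the tested members of each of 42 gene lists (number tested in parentheses) called lower (blue, to the left) or higher (red, to the right) at 1000 than at 100 µM; dotted lines mark the shares over all tested genes, 3.61% lower and 0.76% higher. The NRF2 targets have the largest share of falls (33.3%) and the AP-1 list the largest share of rises (30%), with 21 and 10 members tested.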

How the data were processed

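The deposited values are linear probe-set intensities from Affymetrix Microarray Suite 5.0 (MAS5), per the series' design text and the submitters' processing notes, and the authors' values already share a global scaling. How that software corrects background sets what dim signals mean; its detection and difference calls were not used here. From these intensities, arrays were scaled to a 2% trimmed mean of 500, floored at 1 and taken to log2. Of 22690 probe sets, 64 controls were left out; 14387 were tested because 4 or more of the 20 arrays held them at or above percentile 40 of that array, and 8239 were not.

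limma 3.58.1 in R 4.3.3 (lmFit, then eBayes with a trend on intensity) fitted all 5 doses, 4 arrays each, grouped by the sample titles, with 15 residual degrees of freedom and a prior of 5.33. The contrast of 1000 with 100 µM was adjusted by Benjamini-Hochberg over all tested probe sets, and p-values of genes are two-sided. The fit was run on simulated data with independent noise on each array. These data lacked the difference of the replicate 1 arrays, so the run says nothing about its effect. Nothing states that replicates came from separate cultures, so the p-values rest on a spread that may be technical; with arrays, their number limits the precision.

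Symbols came from the platform annotation, updated through Entrez numbers (20364 matched, 0 changed): 20393 probe sets had 1 symbol, 691 several and 1606 none. A gene is its brightest tested probe set with 1 symbol. Of 2 tested probe sets 1 was called, and both had the same sign, for Socs6, Stat5b, Phf3, Mef2d, Notch1, Tra2b and Sox9. The probe sets of Srxn1 and Taf1c are of a kind shared by several transcripts, and those of Kif2c and Macroh2a2 of a kind that can cross-hybridise. Promoters are the first RefSeq entry per gene.

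The comparison, the 42 gene lists and the rules were chosen with earlier results of these data known. Genes are named if they are among the 12 largest rises or falls without overlap between doses, the 8 largest undone changes, the 2 largest called members of a list, or in a fixed list of stress and muscle genes.

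Replicate numbers were taken to pair the doses: deviations from the group means of same-numbered arrays at 100 and 1000 µM correlated at 0.506, 0.153, 0.12 and 0.204 for replicates 1 to 4, all above 0.1, the level set for a pairing, so a fit with the number as a block was made beside the unpaired one. Differently numbered arrays among replicates 2 to 4 correlated as much (0.0869 to 0.221), so these values set replicate 1 apart and do not show a pairing of replicates 2 to 4. The 10 µM array with no number in its title was left out of the block and counted as replicate 1 elsewhere. Alternatives were other scalings, filters, a floor of 32, the 8 arrays alone, no trend, array weights, the block, replicates 2 to 4, a term for replicate 1, leaving out each array, and the design text's crossed rule.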

Additional observations from a re-analysis of the deposited data

Results flagged for a closer look

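Of 178 groups of 4 arrays examined for a value far from the other 3, 13 held one; chance gives about 1 in 20. They fell 10 times at 1000 µM and 3 times at 100 µM, and 7 of the 13 were replicate 1. The causes were not tested.

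Replicate 1 at 1000 µM was low for Tcim (1004, against 1536 to 1648 on the other arrays), Fam83h (106, against 115 to 116) and Ddit3 (464, against 594 to 614), and high for Kif2c (970, against 685 to 725). Its interquartile range of log2 signal was 3.91, against 4.26 to 4.27. Replicate 1 at 100 µM was high for Fos (623, against 324 to 347) and low for Txnrd1 (2697, against 3299 to 3428).

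Replicate 2 at 1000 µM was high for Gt(ROSA)26Sor (411, against 389 to 391) and Mef2d (1494, against 1169 to 1202), the muscle transcription factor, and low for Zfp958 (59.7, against 113 to 119). Replicate 4 at 1000 µM was low for Zfp82 (91.8, against 110.2 to 111) and high for Stat5b (341, against 304 to 306), a transducer of cytokine signals. Replicate 3 at 100 µM was low for Zfp566 (65.7, against 106 to 109).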

How the results depend on the processing

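Across the alternative fits, 0 of 1682 values of the 85 named genes had another sign than as reported, and 44 of the 78 called genes kept their call in all fits run. Named calls lost numbered 18 with quantile normalization, 16 with median centring, 16 without the filter, 7 without the trend, 19 in a fit of the 8 arrays alone and 4 within replicates 2 to 4. After quantile normalization 152 genes and 262 probe sets were lower, with 92 added, 1 extended and 30 unclassed falls among the dose classes. With median centring 134 genes and 208 probe sets were higher and 98 and 193 lower. Array weights gave 454 and 759 higher, 1063 and 1894 lower.

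Replicate numbers entered as a block, without the unnumbered 10 µM array, gave 189 genes and 331 probe sets higher, 605 and 1059 lower; among named genes the block changed 1 call, adding Atf3, and 0 others. Within replicates 2 to 4 the counts were 197 and 318 higher, 567 and 984 lower, and with a term for the arrays numbered 1 they were 242 and 420 higher, 702 and 1238 lower. The crossed rule of the design text (all pairs of arrays in 1 direction, mean fold over 1.75), run without its detection calls, gave 25 and 39 higher, 67 and 160 lower; of these genes 15 and 52 were also called here. It gives no p, so it was not run for single genes or lists. The causes of these changes were not tested.

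Leaving out 1 array gave 34 to 61 higher and 163 to 241 lower genes, and 60 to 101 higher and 301 to 439 lower probe sets. Dose classes held 17 to 31 added, 2 to 4 extended and 11 to 23 unclassed rises, 1 to 6 undone falls, 89 to 160 added, 1 to 4 extended and 43 to 64 unclassed falls, and 19 to 27 undone rises. Fits without an array have fewer samples. The other filters, the higher floor, the 8 arrays alone and the fit without trend gave 48 to 66 higher and 204 to 294 lower genes. Dim genes, such as 2610528A11Rik and Fosb at 100 µM and Edn1 at 100 and 1000 µM, have less exact sizes. The cultures were sampled at 1 time, 2 h, and on 1 cell line.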
